A study of Mus musculus with 6 samples.

Results

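The distal nephron and collecting duct genes are 36 genes, of 21367 in the deposited table, that mark or serve the tubule beyond the loop of Henle's descending limb. They were chosen by symbol and grouped by the segment in which each is best known: 6 genes of the thick ascending limb, 10 of the distal convoluted and connecting tubule, 9 of the principal cells, 5 of the intercalated cells and 6 shared by several segments. Their mRNA was measured by RNA sequencing of poly-A RNA in the left kidneys of 3 Ptpn6+/mev mice and 3 wild-type littermates, with 1 library per mouse. Ptpn6 encodes the tyrosine phosphatase SHP-1, the mev allele carries a splice-site mutation, and the Ptpn6+/mev genotype, which carries 1 copy of it in every cell, is called an SHP1 knockdown in the labels. All mice were 7 weeks old, on a C57BL/6 background, and had undergone the same injury: after removal of the right kidney, the vessels of the left were closed with a clamp for 34 min, and that kidney was taken 24 h later. Uninjured kidneys were not analysed here, so each value below compares 2 injured groups. The comparison asks how the transporters and channels of the distal tubule differed between the genotypes after ischemia-reperfusion injury.

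The thick ascending limb reabsorbs sodium chloride through an apical cotransporter whose potassium is returned to the lumen by a potassium channel, and it secretes uromodulin into the urine. The distal convoluted tubule reabsorbs sodium chloride through the thiazide-sensitive cotransporter and fine-tunes magnesium, and the connecting tubule moves calcium from lumen to blood. Principal cells of the collecting duct take up sodium through the epithelial channel and water through aquaporins under aldosterone and vasopressin, and intercalated cells secrete acid or bicarbonate.

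With all 6 libraries, edgeR's quasi-likelihood test called no distal gene different between the genotypes, while its exact test, DESeq2 and limma-voom each called Slc4a9. At a false discovery rate below 0.05 in edgeR's quasi-likelihood test, 0 of 35 tested distal genes passed, against 0.138% of the 13036 genes tested in all (18 genes). At an unadjusted p below 0.05, 6 of the 35 passed, 1 higher and 5 lower in Ptpn6+/mev kidneys, against 12.2% of all genes. These 6 genes, Slc4a1 (higher) and Slc12a3, Trpv5, Scnn1b, Scnn1g and Slc4a9 (lower), were also the ones whose FPKM values (fragments per kilobase of transcript, scaled to the reads of the library) did not overlap between the groups, which held for 20.4% of all genes. Neither share of the distal genes lay far from that of all genes. The edgeR exact test called 1 distal gene (2.99% of all genes), DESeq2 called 1 (2.7%) and limma-voom with quality weights called 1 (3.77%). The remaining gene, Pvalb (parvalbumin, a calcium-binding protein of the early distal convoluted tubule), had 9, 3 and 5 counts in the Ptpn6+/mev libraries and 2, 5 and 11 in the wild-type libraries and was below the filter on low counts. In RNA from kidney tissue, fewer cells of a segment and less RNA per cell cannot be told apart. The paper took the left kidneys for both histology and RNA, and does not state which part of each gave the RNA.

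Wild-type replicate 2 stood apart from the other 5 libraries in these genes and is treated separately throughout. In normalised counts it was the highest library for 27 of the 35 distal genes, against 29.5% of all genes, and its median deviation from the 6-library mean was 0.48 on the log2 scale, where the other libraries lay between -0.17 and 0.03. The summed FPKM of 6 endothelial markers was 57.0 in this library and 127.1 to 135.8 in the other 5, and all 6 markers were lowest there. All 5 fibroblast and smooth muscle markers (sum 81.9 against 255.8 to 300.3) and all 6 macrophage markers (sum 104.5 against 158.2 to 261.1) were also lowest in it. In this library Pecam1 was at 13.0, Emcn at 22.8, Acta2 at 45.0 and Col3a1 at 20.2 FPKM, and no endothelial, fibroblast or macrophage marker was at 0. The summed FPKM of 5 urothelial markers was 17.05 in wild-type replicate 2 and 17.95 in Ptpn6+/mev replicate 3, against 6.35 to 10.8 in the other 4, and Upk2 had 0 counts in Ptpn6+/mev replicate 1. The part of these differences in makeup in the distal gene values was not tested. Total counts were 10271590 to 12361745 per library. Ptpn6 itself was at 11.9, 14.7 and 13.6 FPKM in Ptpn6+/mev and 17.5, 10.9 and 15.4 FPKM in wild-type kidneys. Its log2 fold change was -0.19 ± 0.17 with all libraries and -0.34 ± 0.12 without wild-type replicate 2 (adjusted p = 0.715 and 0.201 in edgeR's quasi-likelihood test). These values check the labels only weakly, since a splice-site allele can still give RNA, and the cause of the small difference was not tested.

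**Figure D1:**
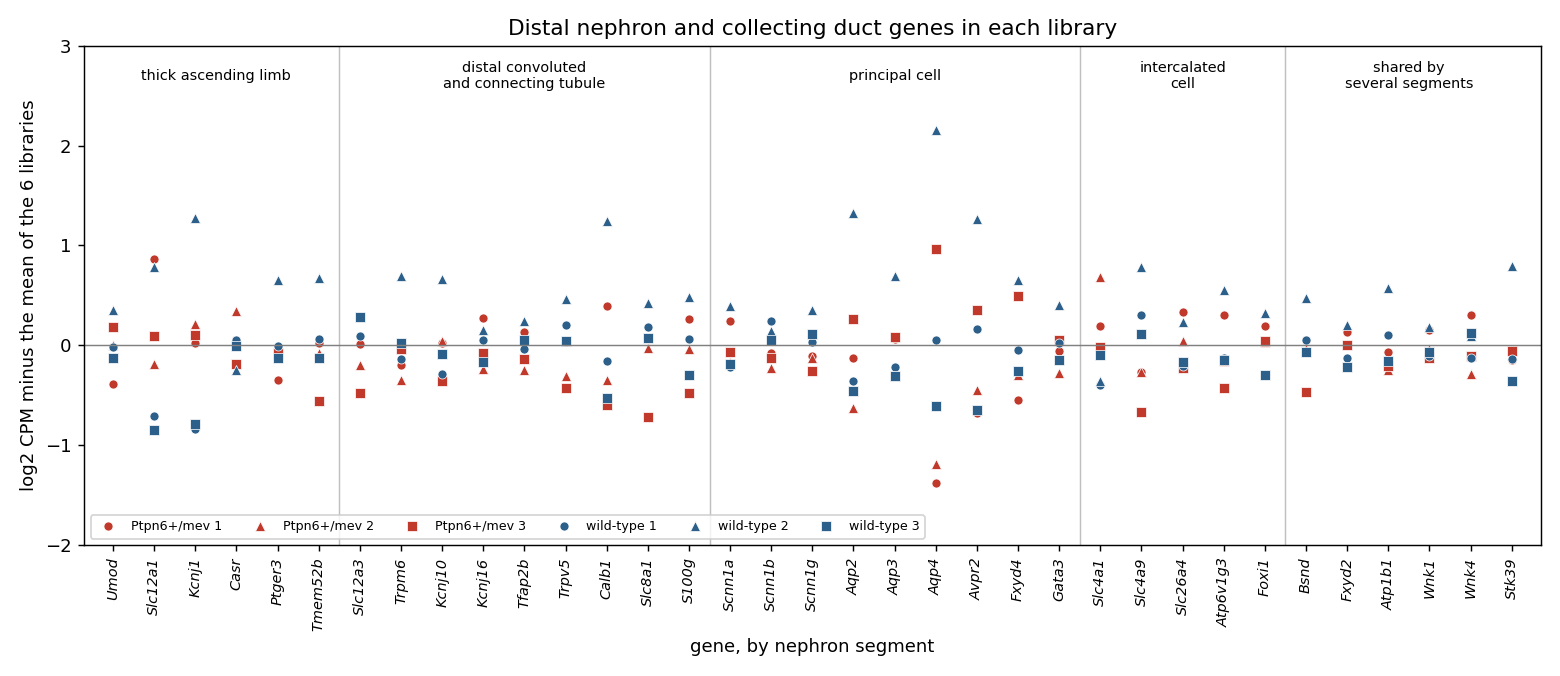
Each point is the log2 CPM (count scaled to library size) of 1 distal gene in 1 library minus the mean of the 6 libraries (vertical axis), for the 35 tested genes by segment (horizontal axis), with Ptpn6+/mev in red, wild-type in blue and the symbol shape giving the replicate. The blue triangles of wild-type replicate 2 are the highest points for 27 of the 35 genes, and the spread is widest for Aqp4.

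With all libraries, the median log2 fold change of the 35 genes (Ptpn6+/mev over wild-type) was -0.21, with 29 genes below 0 and 6 above, while the median of all genes was 0.00. Without wild-type replicate 2, the median was 0.05, with 14 genes below 0 and 21 above. The segments differed in how far they moved. The median of the thick limb genes went from -0.13 to 0.04, that of the distal convoluted and connecting tubule from -0.42 to -0.09, that of the principal cells from -0.29 to 0.10, that of the intercalated cells from 0.10 to 0.25 and that of the shared genes from -0.17 to 0.03. Without this library, 1 of the 35 genes, Kcnj1, passed the false discovery rate threshold of edgeR's quasi-likelihood test, against 1.8% of 13177 genes (237 genes). At an unadjusted p below 0.05, 10 of the 35 passed, 5 in each direction, against 17.2% of all genes. The FPKM of 12 genes then did not overlap between the groups, 7 higher and 5 lower in Ptpn6+/mev, against 35.3% of all genes. The 5 lower genes were the same 5 as with all libraries, and the 7 higher ones were Slc12a1, Kcnj1, Scnn1a, Slc4a1, Foxi1, Fxyd2 and Stk39.

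**Figure D2:**
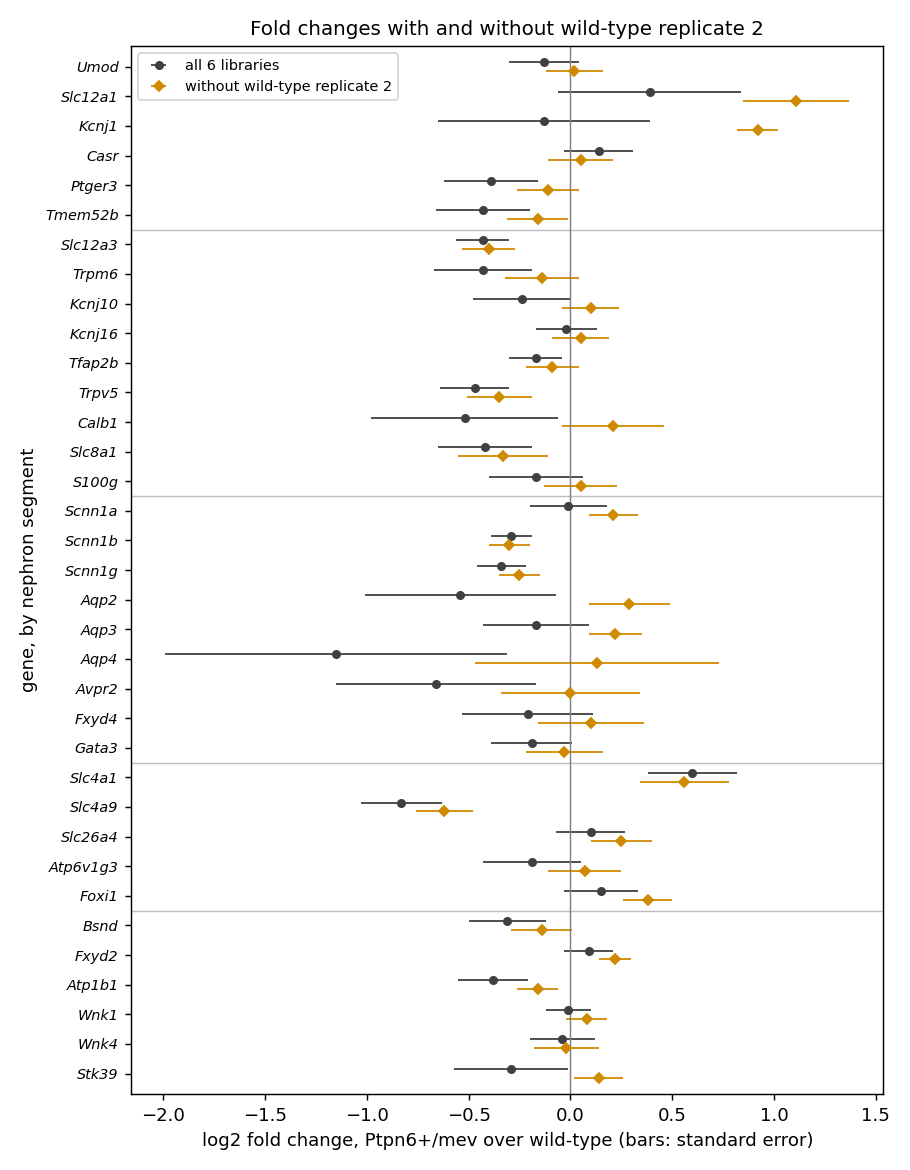
Fitted log2 fold changes (horizontal axis, Ptpn6+/mev over wild-type, bars standard errors) of the 35 tested genes (vertical axis, by segment) with all 6 libraries (dark circles) and without wild-type replicate 2 (orange diamonds). Kcnj1 moved from -0.13 to 0.92 and Aqp4 from -1.15 to 0.13, while Slc4a9 (-0.83 and -0.62) and Slc12a3 (-0.43 and -0.40) stayed on the lower side.

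The only distal gene called without wild-type replicate 2, Kcnj1, was listed with the thick ascending limb. Several listed genes are used in more than a single segment, and tissue RNA does not show which segment a value came from. Kcnj1, the ROMK potassium channel that returns potassium to the lumen, was at 23.1, 26.4 and 24.6 FPKM in the Ptpn6+/mev kidneys and at 12.4, 50.02 and 13.0 FPKM in the wild-type kidneys. The 3 Ptpn6+/mev values lay close together, above wild-type replicates 1 and 3 and below wild-type replicate 2. With all libraries the log2 fold change was -0.13 ± 0.52 (SE, edgeR's quasi-likelihood test, adjusted p = 0.955), and without wild-type replicate 2 it was 0.92 ± 0.10 (adjusted p = 0.00367). Over all alternatives its adjusted p ranged from 0.00367 to 0.996. Slc12a1, the furosemide-sensitive cotransporter NKCC2, was at 53.1, 25.5 and 31.3 FPKM in Ptpn6+/mev and at 17.3, 45.4 and 15.8 FPKM in wild-type kidneys. It had the same pattern in the wild-type group, with replicate 2 high and the other two low. Its log2 fold change was 0.39 ± 0.45 (SE, adjusted p = 0.805 in edgeR's quasi-likelihood test) with all libraries and 1.11 ± 0.26 (adjusted p = 0.0677) without wild-type replicate 2, the range over all alternatives being 0.0677 to 0.994.

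The sequences upstream of these 2 genes are shown because Kcnj1 and Slc12a1 lay highest together when wild-type replicate 2 was left out. Both genes lie on the plus strand of GRCm38.p6 and are given 5′ to 3′. The Kcnj1 line holds the 250 bases before its RefSeq transcription start, at chr9:32393735-32393984, an intronic window because this start lies inside the GENCODE gene at chr9:32372493-32399197. The Slc12a1 line holds chr2:125152350-125152504, the part of the same window that lies before the first GENCODE exon, with the last 95 bases left out. Capitals mark AGAACA, the half-site of the glucocorticoid and mineralocorticoid receptors, searched on both strands (TGTTCT on the other).
Kcnj1: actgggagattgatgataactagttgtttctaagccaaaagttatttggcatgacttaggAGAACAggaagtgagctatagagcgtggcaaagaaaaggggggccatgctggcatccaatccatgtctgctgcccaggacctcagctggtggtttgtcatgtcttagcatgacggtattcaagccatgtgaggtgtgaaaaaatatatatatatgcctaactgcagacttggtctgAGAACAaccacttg
Slc12a1: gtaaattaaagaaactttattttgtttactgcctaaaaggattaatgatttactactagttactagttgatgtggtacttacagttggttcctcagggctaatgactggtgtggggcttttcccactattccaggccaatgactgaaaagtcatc
The Kcnj1 stretch held the letters at positions -190 and -14 from the start, and the Slc12a1 stretch did not hold them. Among 32851 RefSeq promoters of this length, 16.1% held AGAACA or its complement. The distal genes had 33 such promoters, of 29 genes, and 5 of these promoters did (of Aqp2, Avpr2, Kcnj1, Kcnj10 and Slc26a4). Of the same 33, 4 (of Atp6v1g3, Kcnj16, Tfap2b and Umod) held GTTAAT, the half-site of the tubular factor HNF1, or its complement ATTAAC. That sequence or its complement was held by 6.43% of all promoters. The search describes letters in these windows and not binding.

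Umod, which encodes uromodulin, the main protein of normal urine, was the most abundant distal gene at 1628, 2175 and 2556 FPKM in Ptpn6+/mev and 2221, 2198 and 2154.5 FPKM in wild-type kidneys. In FPKM the wild-type values lay close together, and the Ptpn6+/mev values lay on both sides of them. In log2 CPM, Umod was at 11.444, 11.829 and 12.016 against 11.808, 12.183 and 11.7, with wild-type replicate 2 highest. Its log2 fold change was -0.13 ± 0.17 (SE). Casr, the calcium-sensing receptor, was at 5.41 ± 0.892 FPKM (SD, n = 3) in Ptpn6+/mev and 4.58 ± 0.829 FPKM (SD, n = 3) in wild-type, and wild-type replicate 2 was its lowest library. Ptger3, the prostaglandin E receptor EP3, was at 5.41, 6.70 and 6.66 FPKM against 6.84, 9.90 and 6.19 FPKM, again with wild-type replicate 2 highest. Tmem52b, a membrane protein of the distal tubule, was at 43.0, 38.3 and 30.7 FPKM against 45.4, 50.4 and 41.2 FPKM, with Ptpn6+/mev replicate 1 inside the wild-type range. The adjusted p-values of Umod, Casr, Ptger3 and Tmem52b were 0.508 to 0.833 in edgeR's quasi-likelihood test.

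**Figure D3:**
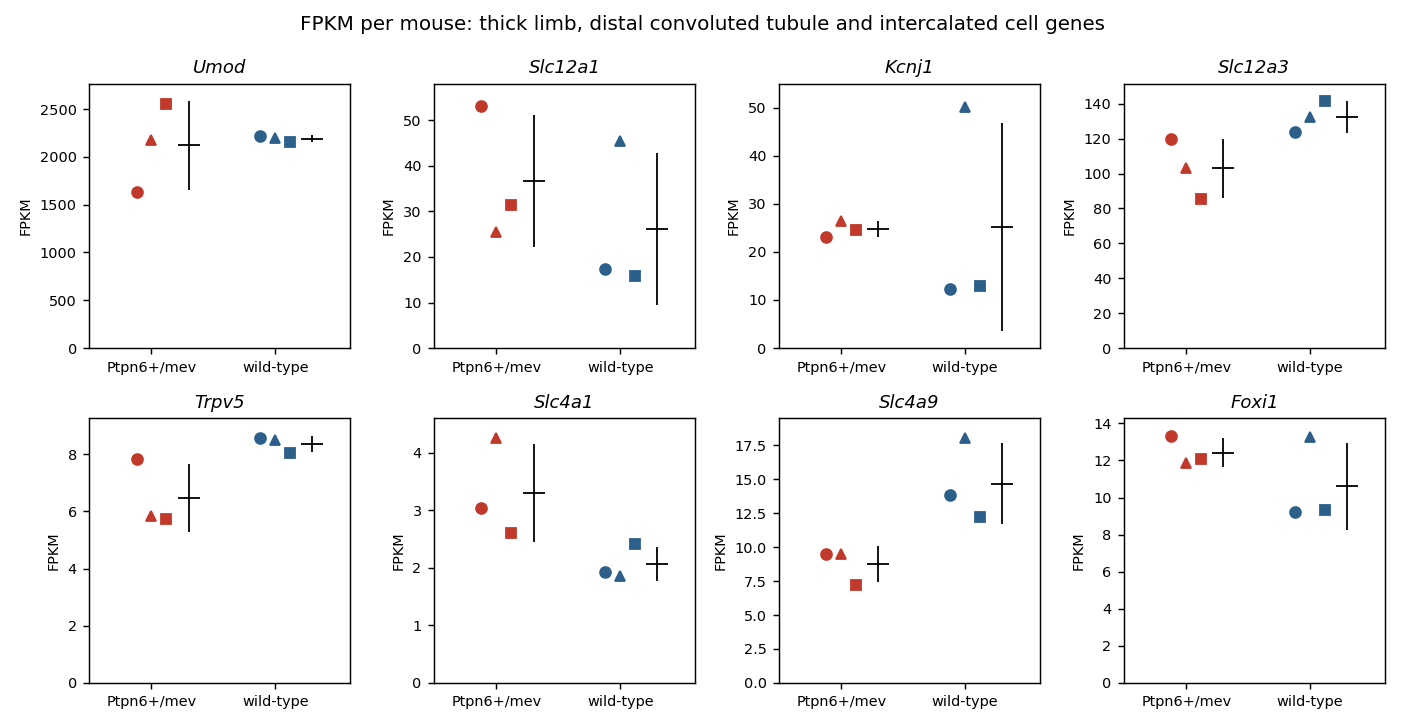
FPKM (vertical axes, from 0) of 8 genes in each mouse, with Ptpn6+/mev in red and wild-type in blue, the symbol shape giving the replicate (circle 1, triangle 2, square 3) and bars the mean and SD of 3. Wild-type replicate 2 was at 50.02 FPKM for Kcnj1 and 45.4 FPKM for Slc12a1 where the other wild-type kidneys lay between 12.4 and 17.3 FPKM, whereas the groups did not overlap for Slc12a3, Trpv5, Slc4a1 and Slc4a9.

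In the distal convoluted and connecting tubule, all 9 tested genes had a log2 fold change below 0 with all libraries, from -0.52 to -0.02, and 5 of the 9 without wild-type replicate 2. Slc12a3, the thiazide-sensitive cotransporter NCC, was at 119.7, 103 and 85.6 FPKM in Ptpn6+/mev and 124, 132 and 142 FPKM in wild-type kidneys. Every Ptpn6+/mev value was below every wild-type value, though Ptpn6+/mev replicate 1 and wild-type replicate 1 were close. The log2 fold change was -0.43 ± 0.13 (SE, edgeR's quasi-likelihood test, adjusted p = 0.234), and it was -0.40 ± 0.13 without wild-type replicate 2. To set the 2 sodium chloride cotransporters side by side, the Slc12a3 to Slc12a1 ratio of FPKM was 2.26, 4.06 and 2.73 in Ptpn6+/mev and 7.15, 2.91 and 8.93 in wild-type kidneys. The ratio in wild-type replicate 2 lay within the Ptpn6+/mev range and those of the other two wild-type kidneys lay above it.

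Trpv5, the apical calcium channel of this segment, was at 7.84, 5.83 and 5.72 FPKM in Ptpn6+/mev and 8.55, 8.50 and 8.04 FPKM in wild-type kidneys. The wild-type kidneys agreed closely in FPKM, and the Ptpn6+/mev values all lay below them. In log2 CPM, Trpv5 was at 4.36, 4.016 and 3.899 against 4.527, 4.795 and 4.37, so that Ptpn6+/mev replicate 1 and wild-type replicate 3 were close. The log2 fold change, fitted to counts, was -0.47 ± 0.17 (SE, adjusted p = 0.321 in edgeR's quasi-likelihood test). Slc8a1, the basolateral sodium-calcium exchanger, was at 4.65, 4.35 and 2.67 FPKM against 4.88, 5.40 and 4.60 FPKM, with Ptpn6+/mev replicate 3 lowest. Calb1, the cytosolic calcium carrier calbindin-D28k, was at 28.0, 16.6 and 14.1 FPKM against 18.5, 45.6 and 14.5 FPKM. Its wild-type group covered a wider range than the difference between groups, and its log2 fold change went from -0.52 ± 0.46 to 0.21 ± 0.25 without wild-type replicate 2. S100g (calbindin-D9k), the other calcium carrier and far more abundant per length, was at 1128, 913 and 676 FPKM against 951, 1195 and 753 FPKM, with overlapping groups. The calcium genes did not share 1 ordering of the libraries, apart from Ptpn6+/mev replicate 3 being lowest in normalised counts for all 4.

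Trpm6, the apical magnesium channel, was at 1.46, 1.30 and 1.64 FPKM in Ptpn6+/mev and 1.48, 2.47 and 1.67 FPKM in wild-type kidneys. Wild-type replicate 2 stood above the rest. Kcnj10 and Kcnj16, the subunits of the basolateral Kir4.1/Kir5.1 potassium channel, had log2 fold changes of -0.24 ± 0.24 and -0.02 ± 0.15 (SE). Kcnj10 was at 9.02 ± 1.32 FPKM against 10.04 ± 3.25 FPKM (SD, n = 3 each), and Kcnj16 was at 99.96 ± 19.2 FPKM against 95.9 ± 5.68 FPKM (SD, n = 3 each). Tfap2b, a transcription factor of the distal tubule, was at 12.6, 10.02 and 9.69 FPKM against 11.02, 10.4 and 12.7 FPKM. The groups overlapped for all of these genes, and their adjusted p-values were 0.548 to 0.980 in edgeR's quasi-likelihood test.

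In the principal cells, all 9 genes had a log2 fold change below 0 with all libraries and 3 of the 9 without wild-type replicate 2, and none was called in either fit of edgeR's quasi-likelihood test. Scnn1b, the beta subunit of the epithelial sodium channel, was at 19.2, 17.2 and 18.6 FPKM in Ptpn6+/mev and 23.3, 20.3 and 20.7 FPKM in wild-type kidneys. Scnn1g, the gamma subunit, was at 12.6, 12.4 and 11.4 FPKM against 13.5, 15.8 and 14.4 FPKM. Both subunits were lower in each Ptpn6+/mev kidney than in each wild-type kidney. The log2 fold changes were -0.29 ± 0.10 for Scnn1b and -0.34 ± 0.12 for Scnn1g (SE), and the adjusted p-values of edgeR's quasi-likelihood test were 0.259 and 0.290. Scnn1a, the alpha subunit, was at 30.7, 23.0 and 24.7 FPKM against 21.7, 30.9 and 22.3 FPKM, so that its groups overlapped through wild-type replicate 2. Its log2 fold change was -0.01 ± 0.19 with all libraries and 0.21 ± 0.12 without wild-type replicate 2, where those of Scnn1b and Scnn1g were -0.30 ± 0.10 and -0.25 ± 0.10.

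Aqp2, the vasopressin-regulated apical water channel, was at 173, 122 and 228 FPKM in Ptpn6+/mev and 143, 431 and 135 FPKM in wild-type kidneys. Aqp4, a basolateral water channel that is most used in the inner medulla, was at 0.99, 1.14 and 5.21 FPKM against 2.67, 10.8 and 1.70 FPKM. Avpr2, the vasopressin receptor that controls Aqp2, was at 2.78, 3.18 and 5.69 FPKM against 4.68, 9.56 and 2.91 FPKM. Fxyd4, a regulator of the sodium pump in the collecting duct, was at 39.4, 45.4 and 85.3 FPKM against 56.2, 83.5 and 46.0 FPKM. In each of these 4 genes the highest kidney of the Ptpn6+/mev group was replicate 3 and the highest of the wild-type group was replicate 2. The same held for Aqp3 and Gata3, whose values are given below, but not for Scnn1a, Scnn1b or Scnn1g. Slc14a2, the urea transporter of the inner medullary collecting duct, was highest in the same 2 kidneys, at 5.91, 16.1 and 38.8 FPKM against 25.9, 32.6 and 18.2 FPKM, as was Elf5, a transcription factor of principal cells, at 2.35, 3.45 and 6.57 FPKM against 5.50, 14.8 and 2.44 FPKM. These 2 genes, which belong to the list of other principal cell genes, were picked out after their values were seen. The rest of that list did not share this order. In the Ptpn6+/mev group, Hsd11b2 and Nr3c2 were highest in replicate 2 and lowest in replicate 3, and Tfcp2l1 and Adcy6 were highest in replicate 1. Nor was the order limited to principal cell genes. In FPKM it also held for the proximal tubule marker Aqp1 and the injury markers Lcn2, Krt8 and Krt18. Lcn2 was at 1183, 1130 and 2269 FPKM in Ptpn6+/mev and 1511, 2080 and 961.5 FPKM in wild-type kidneys. It did not hold for the markers Slc27a2, Slc34a1 and Havcr1. The summed FPKM of the urothelial markers was also highest in Ptpn6+/mev replicate 3 and wild-type replicate 2, and its part in the values above was not tested.

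**Figure D4:**
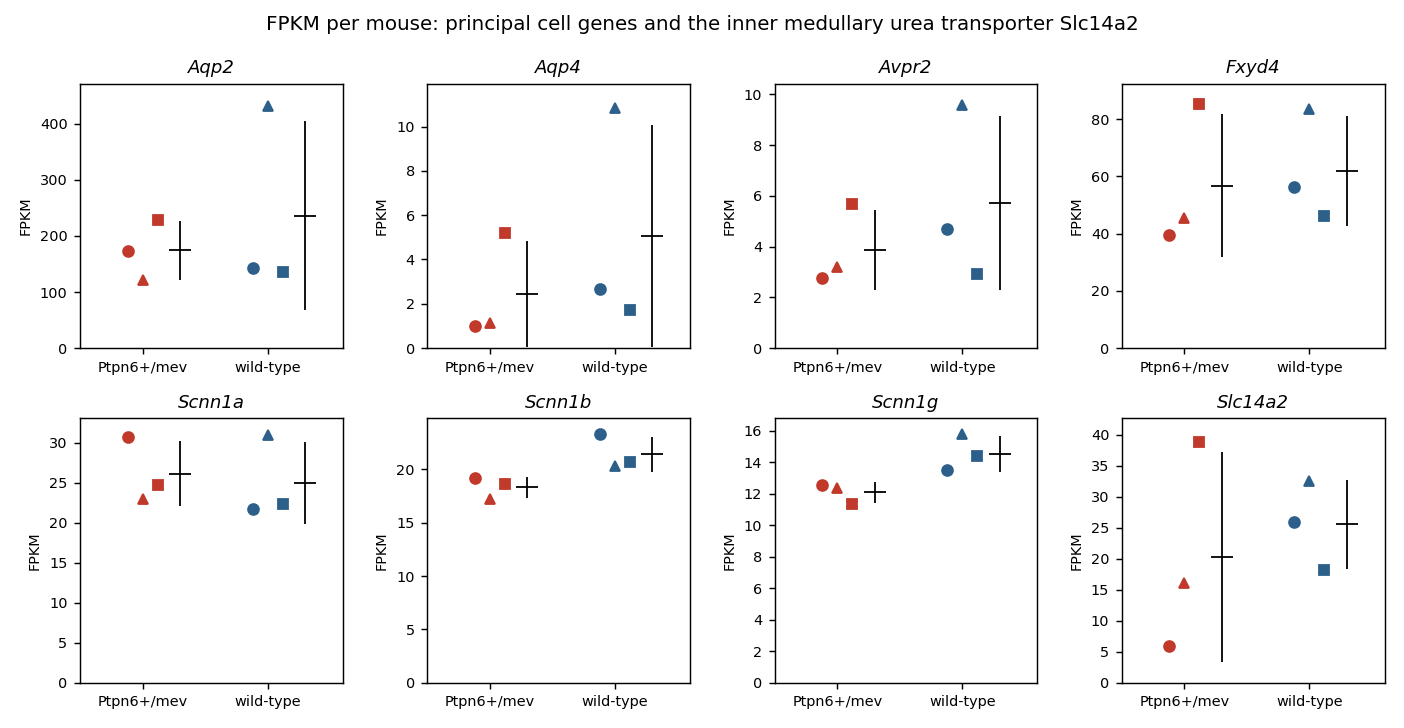
FPKM (vertical axes, from 0) of 7 principal cell genes and of the urea transporter Slc14a2 in each mouse, with Ptpn6+/mev in red and wild-type in blue, the symbol shape giving the replicate (circle 1, triangle 2, square 3) and bars the mean and SD of 3. For Aqp2, Aqp4, Avpr2, Fxyd4 and Slc14a2 the highest points of the groups are Ptpn6+/mev replicate 3 and wild-type replicate 2, while Scnn1b and Scnn1g show narrow groups that do not overlap.

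The differences between genotypes in Aqp2, Aqp4, Avpr2 and Fxyd4 were within the spread between mice. The log2 fold changes with all libraries and without wild-type replicate 2 were -0.54 ± 0.47 and 0.29 ± 0.20 for Aqp2, and -1.15 ± 0.84 and 0.13 ± 0.60 for Aqp4 (SE). They were -0.66 ± 0.49 and 0.00 ± 0.34 for Avpr2, and -0.21 ± 0.32 and 0.10 ± 0.26 for Fxyd4. The adjusted p-values of edgeR's quasi-likelihood test with all libraries ran from 0.651 (Aqp4) to 0.855 (Fxyd4). Aqp3, the basolateral channel through which water leaves the principal cell, was at 48.0, 37.0 and 48.9 FPKM against 38.2, 67.6 and 36.4 FPKM, and Gata3, a transcription factor of the collecting duct, was at 2.78 ± 0.334 FPKM against 3.18 ± 0.503 FPKM (SD, n = 3 each). Wild-type replicate 2 was the highest library for both genes in normalised counts, as it was for 8 of the 9 principal cell genes.

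With all libraries, the highest log2 fold change of the 35 distal genes and the lowest after Aqp4 were those of anion exchangers of intercalated cells, Slc4a1 and Slc4a9. Without wild-type replicate 2, those of Slc12a1 and Kcnj1 were higher than that of Slc4a1. Slc4a9, the anion exchanger AE4 of bicarbonate-secreting (type B) intercalated cells, was at 9.50, 9.49 and 7.19 FPKM in Ptpn6+/mev and 13.8, 18.0 and 12.2 FPKM in wild-type kidneys. The groups were separated by more than the range of the Ptpn6+/mev kidneys. The log2 fold change was -0.83 ± 0.20 (SE), and the adjusted p was 0.150 in edgeR's quasi-likelihood test, 0.0102 in its exact test, 0.0111 in DESeq2 and 0.0267 in limma-voom. Over all alternatives the adjusted p ranged from 0.0102 to 0.524 and the log2 fold change from -0.97 to -0.62, the value without wild-type replicate 2 (adjusted p = 0.0671 in edgeR's quasi-likelihood test).

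Slc4a1, the exchanger AE1 of acid-secreting (type A) intercalated cells and of red cells, was at 3.03, 4.25 and 2.61 FPKM in Ptpn6+/mev and 1.93, 1.86 and 2.41 FPKM in wild-type kidneys. Its groups did not overlap, with a log2 fold change of 0.60 ± 0.22 (SE, adjusted p = 0.311 in edgeR's quasi-likelihood test) and of 0.56 ± 0.22 without wild-type replicate 2. The summed FPKM of 4 haemoglobin genes, a sign of blood in the kidney, was 1626, 618 and 588 in Ptpn6+/mev and 1293, 500.2 and 642 in wild-type kidneys, and its part in the Slc4a1 values was not tested. Per kidney, the ratio of Slc4a1 to Slc4a9 in FPKM was 0.319, 0.448 and 0.363 in Ptpn6+/mev and 0.140, 0.103 and 0.197 in wild-type kidneys. Its groups could not overlap, because each Ptpn6+/mev kidney was above each wild-type kidney for Slc4a1 and below each for Slc4a9. This ratio was formed after the values of both genes were seen and has no test.

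Slc26a4, the chloride-bicarbonate exchanger pendrin of type B and non-A, non-B cells, did not follow Slc4a9. It was at 23.4, 19.1 and 15.9 FPKM in Ptpn6+/mev and 15.6, 19.8 and 16.2 FPKM in wild-type kidneys, with a log2 fold change of 0.10 ± 0.17 (SE). Foxi1, the transcription factor on which intercalated cells depend, was at 13.3, 11.9 and 12.1 FPKM against 9.21, 13.3 and 9.31 FPKM. In FPKM, wild-type replicates 1 and 3 lay below all Ptpn6+/mev kidneys and wild-type replicate 2 lay within their range. In log2 CPM, Foxi1 was at 4.954, 4.793 and 4.805 against 4.467, 5.09 and 4.463, with wild-type replicate 2 highest. Its log2 fold change was 0.15 ± 0.18 with all libraries and 0.38 ± 0.12 without wild-type replicate 2 (adjusted p = 0.133 in edgeR's quasi-likelihood test). Atp6v1g3, the kidney form of a proton pump subunit, was at 29.0, 21.0 and 17.4 FPKM against 20.8, 31.3 and 20.7 FPKM, with overlapping groups.

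Among the genes shared by several segments, Fxyd2, the gamma subunit of the sodium pump, was at 1412, 1292 and 1299 FPKM in Ptpn6+/mev and 1141, 1343 and 1085 FPKM in wild-type kidneys. Atp1b1, the beta subunit of the same pump, was at 741, 668 and 632 FPKM against 833, 946 and 690.4 FPKM. The log2 fold changes were 0.09 ± 0.12 for Fxyd2 and -0.38 ± 0.17 for Atp1b1 (SE, adjusted p = 0.835 and 0.432 in edgeR's quasi-likelihood test). Without wild-type replicate 2 they were 0.22 ± 0.08 and -0.16 ± 0.10 (adjusted p = 0.201 and 0.442). Bsnd, which encodes barttin, was at 11.3, 10.7 and 7.93 FPKM against 11.03, 13.8 and 10.3 FPKM. The kinases of the pathway that phosphorylates both sodium chloride cotransporters were close to 0 difference: Wnk1 had a log2 fold change of -0.01 ± 0.11 and Wnk4 one of -0.04 ± 0.16. In FPKM, Wnk1 was at 34.2 ± 6.31 against 31.9 ± 0.476 and Wnk4 at 28.4 ± 4.89 against 24.7 ± 3.07 (SD, n = 3 each), so that for both kinases the 2 scales differed in direction. Stk39, the kinase SPAK that acts below the WNK kinases, was at 7.13, 7.35 and 7.65 FPKM in Ptpn6+/mev and 6.98, 12.5 and 6.07 FPKM in wild-type kidneys. Its Ptpn6+/mev values lay close together, and its log2 fold change was -0.29 ± 0.28 with all libraries and 0.14 ± 0.12 without wild-type replicate 2.

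Other genes of the same segments had wild-type replicate 2 as the highest library for 15 of the 34 tested, against 29.5% of all genes. This held for 4 of 6 thick limb, 4 of 6 principal cell and 6 of 12 intercalated cell genes. It held for 1 of 10 distal convoluted and connecting tubule genes, of which 6 were highest in Ptpn6+/mev replicate 1. Of the 35 other segment genes, 34 were tested (Slc26a7 was below the filter) and 0 were called in either direction by edgeR's quasi-likelihood test, by its exact test or by DESeq2, while limma-voom called 1 (Sgk1), against 3.77% of all genes. At an unadjusted p below 0.05 in the first of these tests, 6 passed, 4 higher and 2 lower, against 12.2% of all genes. Of the 34 genes, those of the distal convoluted and connecting tubule had a median log2 fold change of 0.01, and those of the principal cells one of -0.29. Among the thick limb genes, the claudin Cldn10 had a log2 fold change of -0.07 ± 0.15 (SE). In the distal convoluted and connecting tubule list, Klk1, the tissue kallikrein made by the connecting tubule, was at 4646, 3015 and 3051 FPKM in Ptpn6+/mev and 2695, 2459 and 2388 FPKM in wild-type kidneys, all Ptpn6+/mev values being above all wild-type ones (log2 fold change 0.44 ± 0.17, adjusted p = 0.344 in edgeR's quasi-likelihood test). Reads of Klk1 can be shared with near-identical kallikrein genes, which makes this value uncertain. Sgk1, an aldosterone-induced kinase that raises sodium channel activity, was at 90.6, 52.0 and 83.6 FPKM against 38.7, 60.2 and 45.2 FPKM (log2 fold change 0.56 ± 0.23, adjusted p = 0.374 in edgeR's quasi-likelihood test). Its groups overlapped through wild-type replicate 2, without which the log2 fold change was 0.78 ± 0.19 (adjusted p = 0.0805). Of the principal cell list, Hsd11b2, which shields the mineralocorticoid receptor from glucocorticoids, had a log2 fold change of -0.17 ± 0.11 and the transcription factor Tfcp2l1 one of -0.50 ± 0.22. Of the intercalated cell list, the carbonic anhydrase Car2 had one of -0.09 ± 0.14 and the proton pump subunit Atp6v0a4 one of -0.05 ± 0.13.

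Markers of the proximal tubule and of tubular injury are given beside the distal genes. With all libraries edgeR's quasi-likelihood test called 0 of 10 proximal tubule and 0 of 9 injury markers, 5 (all lower) and 4 (all higher) having an unadjusted p below 0.05, against 12.2% of all genes. The exact test called 3 and 1 of them, DESeq2 3 and 2, and limma-voom 4 and 3, against 2.99%, 2.7% and 3.77% of all genes. When wild-type replicate 2 was left out, the quasi-likelihood test called 4 (lower) and 2 (higher), against 1.8% of all genes. The summed FPKM of 10 proximal tubule markers was 1094 to 1194 in the 3 Ptpn6+/mev kidneys and 1410 to 1548 in the 3 wild-type kidneys, and 9 of the 10 had a log2 fold change below 0 (median -0.44). Slc27a2 and Slc34a1, the most abundant of them, were at 482 ± 87.5 and 216 ± 35.1 FPKM in Ptpn6+/mev against 604 ± 123 and 264.5 ± 77.1 FPKM in wild-type kidneys (SD, n = 3 each). The 9 tubular injury markers had a median log2 fold change of 0.27, with Lcn2 (neutrophil gelatinase-associated lipocalin) at 1527 ± 643 FPKM in Ptpn6+/mev against 1517 ± 559 FPKM in wild-type, and Havcr1 (kidney injury molecule 1) at 1505 ± 64.6 FPKM against 1203 ± 100.3 FPKM (SD, n = 3 each). The median deviation of the proximal tubule markers was 0.27 on the log2 scale in wild-type replicate 2. It was 0.31 and 0.19 in wild-type replicates 1 and 3. The single markers were split in wild-type replicate 2. Relative to the mean FPKM of wild-type replicates 1 and 3, Slc34a1 was at 0.568, Lrp2 at 0.66 and Slc5a2 at 0.746 times. Slc5a12, Cubn and Miox were also below that mean. Aqp1 was at 1.56 and Slc27a2 at 1.4 times that mean, and Slc22a6 and Slc7a13 were also above it. The part of these shifts in the distal gene values was not tested.

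**Figure D5:**
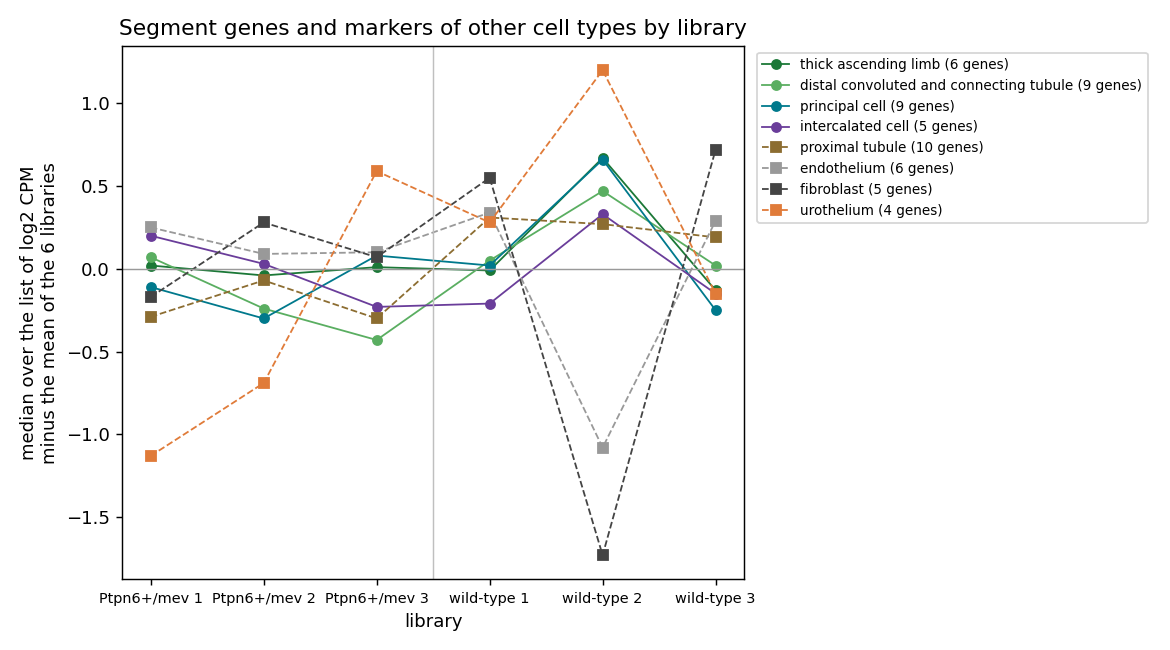
Median over each gene list of the log2 CPM minus the 6-library mean (vertical axis) in each library (horizontal axis), for 4 distal segments (solid lines) and 4 marker lists (dashed lines). All 4 segments peak in wild-type replicate 2 (0.33 to 0.67), where the endothelial and fibroblast markers are at -1.08 and -1.73 and the urothelial markers at 1.20.

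Between mice of a genotype the distal genes had a larger spread than the median gene, given here as a description. The median SD of log2 CPM was 0.24 over the 35 genes in the Ptpn6+/mev group and 0.35 in the wild-type group, against 0.14 and 0.19 over all genes. For 24 of the 35 genes (68.6%) the wild-type SD was the larger, as for 64.8% of all genes. Within the wild-type group, replicates 1 and 3 differed in log2 CPM by 0.05 for Kcnj1, 0.14 for Slc12a1 and 0.10 for Aqp2, but by 0.37 for Calb1, 0.66 for Aqp4 and 0.82 for Avpr2. For 7 genes (Umod, Tmem52b, Tfap2b, Trpv5, Gata3, Wnk1 and Wnk4) the length implied by count and FPKM differed between libraries by 1.16 times (Gata3) to 1.35 times (Wnk4), so that their counts and FPKM can order the libraries differently. For Umod, wild-type replicate 2 was the highest library in normalised counts and in the middle of the 6 in FPKM.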

How the data were processed

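Poly-A RNA of 6 left kidneys, 3 Ptpn6+/mev and 3 wild-type, was sequenced by the authors, who per the labels used TopHat2 (2.0.3.12), Bowtie2, Cufflinks and RSEM with the GRCm38.p5 genome. The deposited table holds estimated counts per gene, with fractions for 1744 genes including the distal genes Atp1b1 and Avpr2, and the deposited FPKM values, which the authors normalised to transcript length and library total. The study's methods name Cufflinks for the FPKM, and the tool that made the counts is not given in the sources used here.

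Counts were rounded and tested in edgeR 4.0.16 (R 4.3.3) with TMM scaling and the default filterByExpr filter, and the quasi-likelihood p-values were adjusted by the method of Benjamini and Hochberg across the 13036 genes kept (threshold 0.05). The fit was checked on simulated counts. It was repeated under 16 alternatives, among them DESeq2 1.42.0 and limma 3.58.1. Standard errors are of log2 fold changes, and p-values measure the spread between mice, since the labels give each library its own animal. Within-group libraries differed by more than sampling noise (chi-square per degree of freedom 6.27 to 43.26). Depth was 10271590 to 12361745 counts per library. Gene positions are from GENCODE M21 and promoters from RefSeq (GRCm38.p6).

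All 36 distal genes are named. Of the other segment genes, those called and the 2 with the highest mean FPKM in each list are named, and of the marker lists the 2 highest where a list moved with a group or library, other names being chosen after values were seen. One gene that this rule names is not reported here. The genes, lists and tests were chosen with earlier results of these data known, and the choice to leave out wild-type replicate 2 was among them.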

Additional observations from a re-analysis of the deposited data

How the results depend on the processing

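The count of all genes called, 18, was 378 with DESeq2, 390 with the edgeR exact test, 492 with limma-voom and quality weights, and 52 with no filter on low counts. It was 1 to 237 when single libraries were left out: 237 without wild-type replicate 2, 67 without wild-type replicate 3, 10 without wild-type replicate 1, and 4, 11 and 1 without Ptpn6+/mev replicates 1, 2 and 3. The count of distal genes called, 0, was 1 (Slc4a9) with DESeq2, with the exact test and with limma-voom, and 0 to 1 when single libraries were left out (Kcnj1, without wild-type replicate 2). The median log2 fold change of the distal genes, -0.21, ranged from -0.35 to 0.049 when single libraries were left out. The cause of these changes was not tested. Equal replicate numbers gave no sign of paired mice: the deviations of same-numbered libraries correlated at -0.14, -0.18 and -0.13. No library correlated best with its own number. With 3 mice per group, such correlations cannot show that no pairing existed. With a replicate block, 1 gene and 0 distal genes were called, and the log2 fold changes of 2 distal genes changed sign (Kcnj1 0.23 and Scnn1a 0.0077). Of the 35 distal genes, 17 kept the sign of their log2 fold change in all 16 alternatives and 18 did not, 15 of them without wild-type replicate 2. With limma-voom the sign changed for Umod 0.027, Kcnj1 0.81, Casr -0.0037, Kcnj10 0.016, Scnn1a 0.15, Aqp2 0.20, Aqp3 0.16, Fxyd4 0.10, Wnk1 0.039 and Stk39 0.058. With limma on log2 FPKM plus 1 and plus 0.1 it changed for Kcnj1 0.28 and 0.30, Kcnj16 0.043 and 0.044, Scnn1a 0.07 and 0.073, Wnk1 0.083 and 0.085 and Wnk4 0.19 and 0.19. When single libraries were left out, the log2 fold changes that crossed 0 ranged as follows: Umod -0.26 to 0.021, Slc26a4 -0.053 to 0.25, Casr -0.0033 to 0.26, Kcnj16 -0.18 to 0.091, Scnn1a -0.14 to 0.21, Wnk1 -0.092 to 0.078, Wnk4 -0.23 to 0.08, S100g -0.36 to 0.048, Kcnj1 -0.47 to 0.92, Kcnj10 -0.42 to 0.096, Calb1 -0.87 to 0.21, Aqp2 -0.84 to 0.29, Aqp3 -0.35 to 0.22, Aqp4 -2.35 to 0.13, Avpr2 -1.04 to 0.0044, Fxyd4 -0.59 to 0.10, Atp6v1g3 -0.42 to 0.071 and Stk39 -0.51 to 0.14. A gene that was not called is not shown to be equal between the genotypes.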
